A study of Mus musculus with 8 samples.

Results

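Chemokines are small secreted proteins that bind G protein-coupled receptors and steer the migration of leukocytes. Intraepithelial lymphocytes (IELs) are T cells lodged among the cells of the intestinal epithelium. Once triggered through the T cell receptor, cytotoxic T cells are known for releasing CCL3, CCL4, CCL5 and the XCR1 ligand XCL1. Other members of the family are known mainly from other cells of the gut: CCL25 and CCL20 from epithelium, and the interferon-induced CXCL9 and CXCL10 from many cell types.

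Described here are 10 chemokine genes, Ccl1, Ccl3, Ccl4, Ccl5, Xcl1, Ccl20, Ccl25, Cxcl9, Cxcl10 and Cxcl16, found by symbol among the 25230 genes of the count table. All 10 had counts in each of the 8 libraries, and all 10 were among the 14691 genes that passed the filter on low counts. The libraries came from 8 C57BL/6J mice, each injected into the abdominal cavity with 35 µg of an antibody against CD3, which triggers T cells. PBS accompanied the antibody in 4 mice, and exendin-4 (Ex4, 10 nmol/kg), an agonist of the GLP-1 receptor, in the other 4. IELs were isolated 3 hours later on Percoll and by sorting for CD45, a protein of all leukocytes, so the sort did not select T cells. No mouse went without anti-CD3, so whether these genes were induced cannot be read from the libraries, and age and sex are not given in the labels used here.

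Levels are given in CPM, the count of a gene scaled to a common library size with TMM factors. Library totals ran from 13386889 to 31843413 counts, and every pair of libraries within a group differed by more than sampling noise (mean chi-square per gene at least 22.1). Summed over 10 markers, T cell and IEL genes such as Cd3e and Itgae stood at 5057 to 5849 CPM with PBS and 5113 to 5668 CPM with Ex4. Single markers in this sum went both ways, with fitted differences below 0 for 4 and above 0 for 6. The groups did not overlap for 1 of them, Cd8a, against 2.66% of all genes on the lower side. Cd8a was at 1600 ± 322 CPM with PBS and 1060 ± 116 CPM with Ex4 (SD, n = 4, edgeR adjusted p = 0.351). Markers of other cell types were present too. The sum of 17 epithelial markers was 644 to 1429 CPM with PBS and 322 to 729 CPM with Ex4, and that of 15 macrophage and dendritic cell markers was 162 to 340 and 144 to 272 CPM. The sum of 6 B and plasma cell markers was 825 to 1436 and 246 to 2137 CPM, and 0 markers of these lists were at 0 in all libraries. PBS 1 held the highest macrophage and mast cell sums (340 and 203 CPM), PBS 3 the highest epithelial sum, and Ex4 3 the highest B cell sum. In such bulk libraries fewer cells of a type and less RNA per cell cannot be told apart.

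Promoters are printed for 4 of the genes because the results below turn on how these genes differed: Cxcl9 and Cxcl10, which encode ligands of 1 receptor, Xcl1, whose values ran closest to those of Cxcl10, and Ccl1, with the largest fitted difference. Each window covers 250 bases before to 50 bases after the annotated start, 5′ to 3′ on the strand of the gene, from RefSeq (GRCm38.p6). Capitals mark matches to the motifs described after them.
Cxcl9, chr5:92328030-92328329, minus strand: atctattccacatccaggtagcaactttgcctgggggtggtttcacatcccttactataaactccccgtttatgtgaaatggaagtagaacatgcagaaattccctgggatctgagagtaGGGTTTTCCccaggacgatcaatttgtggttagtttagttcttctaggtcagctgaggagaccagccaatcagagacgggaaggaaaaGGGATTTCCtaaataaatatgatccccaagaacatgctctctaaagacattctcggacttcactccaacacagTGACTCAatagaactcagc
Cxcl10, chr5:92348840-92349139, minus strand: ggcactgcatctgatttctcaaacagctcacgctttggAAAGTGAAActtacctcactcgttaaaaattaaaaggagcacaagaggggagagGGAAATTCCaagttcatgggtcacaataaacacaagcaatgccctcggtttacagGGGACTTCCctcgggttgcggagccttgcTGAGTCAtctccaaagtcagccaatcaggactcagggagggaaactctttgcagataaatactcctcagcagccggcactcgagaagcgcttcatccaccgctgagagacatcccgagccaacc
Xcl1, chr1:164935473-164935772, minus strand: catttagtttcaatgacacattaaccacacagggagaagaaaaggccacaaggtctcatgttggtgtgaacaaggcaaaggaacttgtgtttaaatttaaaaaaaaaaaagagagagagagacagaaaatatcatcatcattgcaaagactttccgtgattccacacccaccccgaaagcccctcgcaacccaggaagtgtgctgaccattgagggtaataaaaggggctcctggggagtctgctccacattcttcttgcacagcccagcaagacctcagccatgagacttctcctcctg
Ccl1, chr11:82179763-82180062, minus strand: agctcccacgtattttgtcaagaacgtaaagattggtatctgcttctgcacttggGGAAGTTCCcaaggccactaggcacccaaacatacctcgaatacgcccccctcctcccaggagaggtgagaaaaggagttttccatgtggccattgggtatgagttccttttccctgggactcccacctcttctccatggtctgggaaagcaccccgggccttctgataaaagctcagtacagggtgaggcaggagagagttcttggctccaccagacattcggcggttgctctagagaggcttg

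RefSeq windows were matched for 7 of the 10 genes, giving 8 windows because Ccl25 has 2 annotated starts. Ccl4, Ccl5 and Cxcl16 were not matched. The NF-kappaB letters GGNNNTTCC, searched on both strands, occurred in 5 of the 8 windows and in 18.5% of 32851 windows of the same length. Cxcl9 held them at positions -130 and -42 from the start, Cxcl10 at -158 and -103, and Ccl1 at -195. The interferon response letters AAANNGAAA occurred in 1 window, that of Cxcl10 at position -212, against 10.6% of all windows. The AP-1 letters TGANTCA were in the windows of Cxcl9 and Cxcl10 (7.81% of all windows). The interferon-gamma activated sequence TTCNNNGAA (8.30% of all windows), the cAMP response element TGACGTCA (1.79%) and its short form TGACG (20.8%), which overlaps the full element, were in 0 of the 8. The windows of Xcl1 and Ccl3 held none of the 6 motifs. These matches describe letters in a window and do not locate a bound site.

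The level per kb of exon put the 10 genes in a steep order. Ccl5 stood first at 18589 CPM per kb on average over the 8 libraries and Ccl4 next at 3111, both far above the others. They ranked 2 and 6 among 14393 tested genes with an annotated length. Xcl1 (345 CPM per kb) and Ccl3 (272) followed, and over the 8 libraries they could not be ordered. Xcl1 was the higher in the 4 PBS libraries (means 428 and 237) and the lower in the 4 Ex4 libraries (262 and 306). This switch of order was not tested. Cxcl10 came next at 32.6, Cxcl9 at 8.60 and Cxcl16 at 4.03 CPM per kb, each with a range over libraries that did not meet that of the gene above it. Ccl20 at 2.93, Ccl1 at 2.32 and Ccl25 at 1.14 CPM per kb closed the order, and the ranges of Cxcl16, Ccl20, Ccl1 and Ccl25 overlapped between neighbours. With the longest transcript as the length, the level of Ccl25 was 3.34 CPM per kb and that gene moved from last to the eighth place, while the first 7 places were the same. For Ccl1 the GENCODE model ran to position 82305690 on chromosome 11, against 82179812 in RefSeq. Both of its lengths (2369 and 2126 bases) came from this longer model, so its place near the end of the order is uncertain. Ccl5 made up 79.9 to 88.4% of the summed level of the 10 genes, and Ccl4 6.01 to 16.3%.

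**Figure D1:**
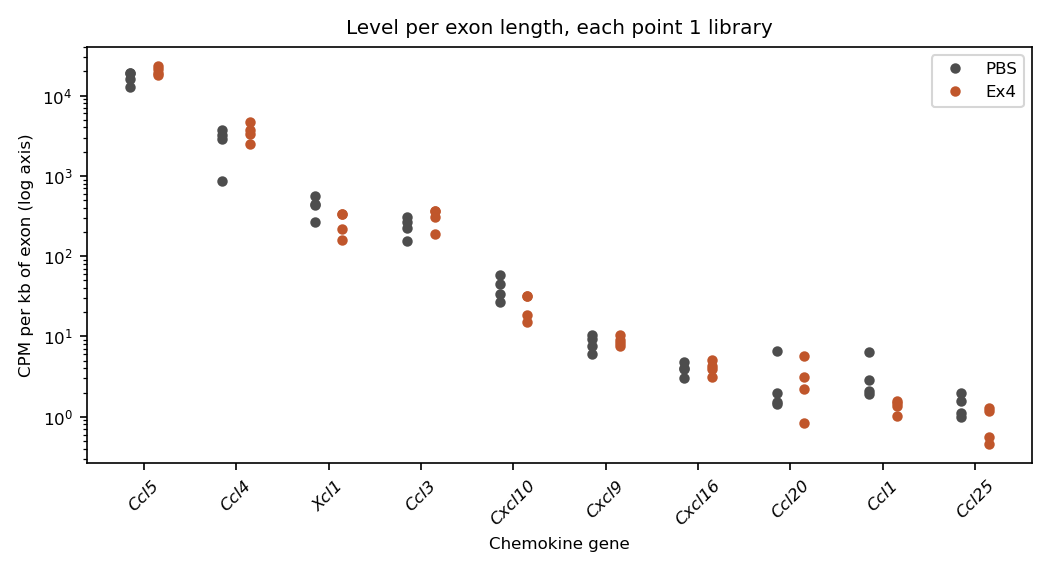
Level of each of the 10 chemokine genes per kb of exon (vertical log axis, CPM per kb), with 1 point per library, grey for PBS and orange for Ex4. Ccl5 averages 18589 CPM per kb and Ccl25 1.14, and the 4 genes at the right overlap with their neighbours.

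The comparison of Ex4 with PBS asked whether the GLP-1 receptor agonist altered these chemokine genes in IELs of anti-CD3-treated mice. None of the 10 passed: 0 were called higher and 0 lower at an adjusted p under 0.05 (edgeR quasi-likelihood test, Benjamini-Hochberg over all genes), where 0.0136% of all tested genes were called. DESeq2 called 0 of the 8 for which it gave an adjusted p. Over all 14691 genes, a base that includes genes without an adjusted p, it called 0.565%. DESeq2 gave no adjusted p for Ccl1, which had the smallest unadjusted DESeq2 p of the 10 (0.00175), and none for Ccl20. At an unadjusted p under 0.05 in edgeR, 3 of the 10 had lower values with Ex4 (Ccl1, Xcl1 and Cxcl10) and 0 had higher values, against 3.9% of all genes on the lower side and 3.71% on the higher side. The groups did not overlap for 1 of the 10, Ccl1 on the lower side, against 2.66% of all genes on that side. The median log2 fold change of the 10 genes was 0.06, and that of all genes 0.02. Fitted values were below 0 for 4 genes and above 0 for 6, and 47.1% of all genes were below 0.

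**Figure D2:**
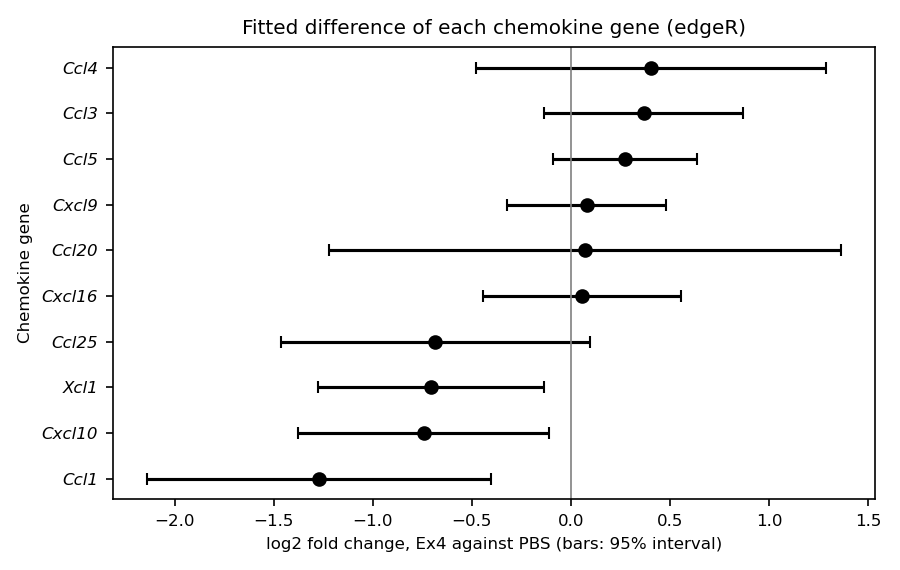
Fitted log2 fold change of Ex4 against PBS for each chemokine gene (points) with its 95% interval (bars), not corrected for the number of genes. The intervals of Ccl1, Cxcl10 and Xcl1 lie below 0 and those of the other 7 genes include 0.

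Ccl3, Ccl4 and Ccl5 encode CC chemokines that recruit T cells and monocytes. All 3 lie on chromosome 11, Ccl5 at chr11:83525778-83530518, Ccl3 at chr11:83647843-83649378 and Ccl4 up to position 83664683 (RefSeq, GRCm38). Ccl5, which memory cytotoxic T cells already hold as mRNA before they are triggered, was at 12152, 18380, 15528 and 18568 CPM in PBS 1 to 4 and at 18135, 17266, 22440 and 20293 CPM in Ex4 1 to 4. All 4 Ex4 values lay above the PBS mean, 2 of them above every PBS library, and the lowest value of all was that of PBS 1. The means were 16157 ± 3011 CPM (SD, n = 4) with PBS and 19534 ± 2318 CPM with Ex4. Its log2 fold change was 0.27 (SE 0.17, 95% interval -0.09 to 0.64, edgeR adjusted p = 0.757), and it was 0.15 without PBS 1 and 0.18 without Ex4 3. Of all gene counts Ccl5 took 1.61% ± 0.228 (SD, n = 4) with PBS and 1.94% ± 0.191 with Ex4.

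Ccl4 was at 568, 1918, 2153 and 2429 CPM in PBS 1 to 4. In Ex4 1 to 4 it was at 2435, 2178, 3109 and 1637 CPM. The groups overlapped, and PBS 1 stood far below the other 7 libraries. Fitted with edgeR, the log2 fold change was 0.41 (SE 0.39, 95% interval -0.48 to 1.29, edgeR adjusted p = 0.873). It was 0.10 without PBS 1 and 0.22 without Ex4 3. Ccl3, which encodes a close relative of CCL4, was at 117, 172, 234 and 205 CPM in PBS 1 to 4 and at 232, 279, 283 and 145 CPM in Ex4 1 to 4. Here PBS 1 and Ex4 4 were the low libraries and the groups overlapped. The log2 fold change of Ccl3 was 0.37 (SE 0.23, 95% interval -0.13 to 0.87, edgeR adjusted p = 0.769). It was 0.20 without PBS 1 and 0.53 without Ex4 4 (edgeR unadjusted p = 0.0181, adjusted p = 0.649). Per kb of exon Ccl4 exceeded Ccl3 9.07- to 13.8-fold in 7 libraries, and 5.64-fold in PBS 1. The RefSeq gene model of Ccl4, which includes a predicted transcript, starts at position 83648624 and so overlaps Ccl3 on the opposite strand, and whether the counting used the strand is not given in the sources used here.

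**Figure D3:**
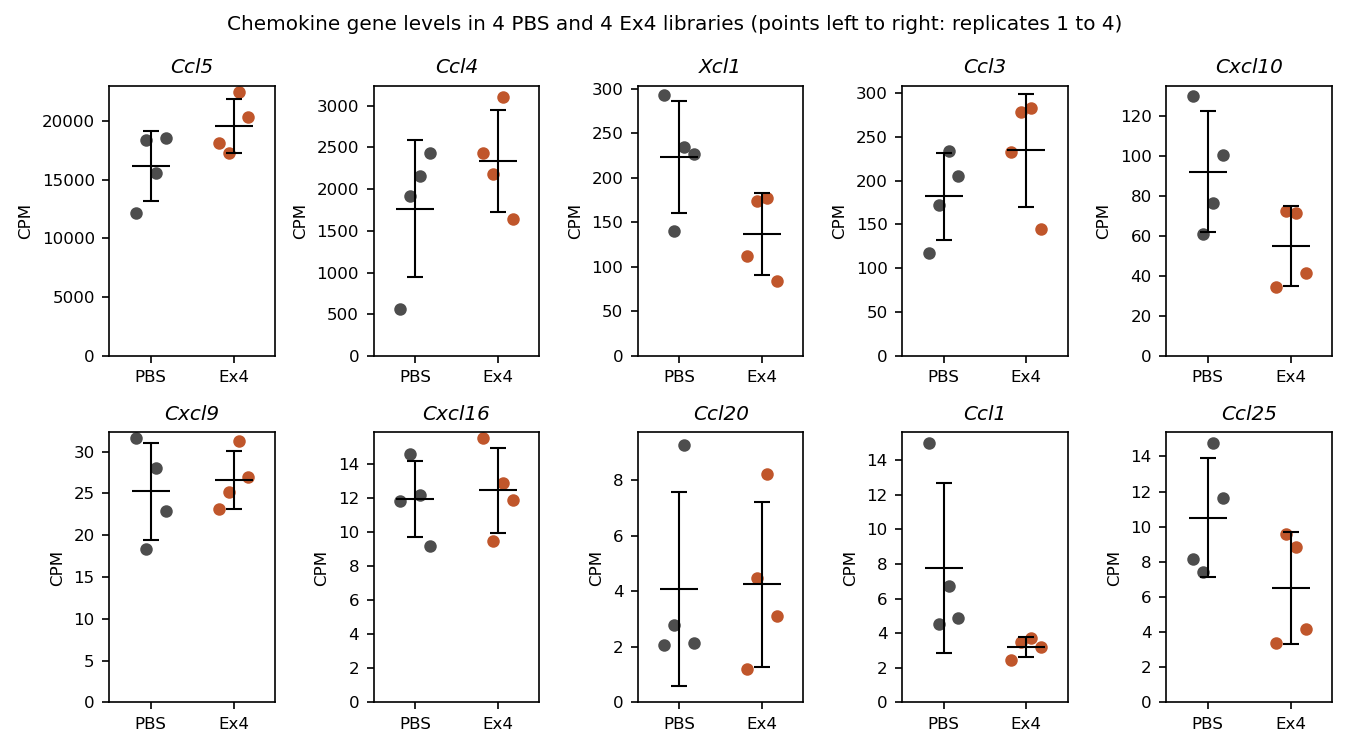
CPM of each chemokine gene in the 4 PBS (grey) and 4 Ex4 (orange) libraries, replicates 1 to 4 from left to right, with the mean (long bar) and SD (capped line). The groups are apart for Ccl1 alone among the 10 genes, and the Ccl4 point of PBS 1 at 568 CPM lies below the other 7 Ccl4 points.

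Xcl1 encodes lymphotactin, the ligand of XCR1, through which cytotoxic lymphocytes attract cross-presenting dendritic cells. It lies at chr1:164931644-164935522 (RefSeq, GRCm38). Its level was 293, 140, 235 and 227 CPM in PBS 1 to 4 and 112, 174, 177 and 84.0 CPM in Ex4 1 to 4. All 4 Ex4 libraries lay below the PBS mean, but PBS 2 lay within the Ex4 range, so the groups overlapped. The means were 224 ± 62.8 and 137 ± 46.0 CPM (SD, n = 4), and the log2 fold change was -0.71 (SE 0.26, 95% interval -1.28 to -0.14). With an edgeR unadjusted p of 0.0194 and an adjusted p of 0.543 it did not pass. Leaving out single libraries gave log2 fold changes from -0.89 without PBS 2 to -0.55 without Ex4 4. The ratio of Ccl3 to Xcl1 per kb of exon was 0.273, 0.838, 0.679 and 0.617 in PBS 1 to 4 and 1.41, 1.10, 1.09 and 1.18 in Ex4 1 to 4. It was 1 of 5 ratios between these genes that were computed, and it was not tested. Its groups did not overlap, while those of the other ratios did. How often ratios of other gene pairs keep the groups apart was not computed, so this has no base to be read against. The 98 exon bases that Xcl1 shares with Gm20743 on the other strand are a further limit on its count.

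Ccl1 encodes the ligand of CCR8, a receptor found on skin-homing and regulatory T cells, and is made mainly by activated T cells. It lies at chr11:82176666-82179812 (RefSeq, GRCm38). It had 311, 109, 135 and 87 counts in PBS 1 to 4 and 55, 93, 108 and 45 counts in Ex4 1 to 4. In CPM these were 14.97, 4.52, 6.70 and 4.89 with PBS and 2.44, 3.499, 3.73 and 3.18 with Ex4. Every Ex4 library lay below every PBS library, and PBS 1 lay well above the other 3 PBS values. In the fit the log2 fold change was -1.27 (SE 0.41, 95% interval -2.14 to -0.40, edgeR unadjusted p = 0.00702, adjusted p = 0.433), so the difference did not pass. It was -0.75 without PBS 1 and -1.48 without PBS 2.

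Cxcl9 and Cxcl10 encode ligands of CXCR3, a receptor of type 1 effector T cells, and are classic targets of interferon-gamma. They are neighbours on chromosome 5, at chr5:92321331-92328079 and chr5:92346638-92348889 (RefSeq, GRCm38). Cxcl10 was at 130, 61.0, 76.5 and 101 CPM in PBS 1 to 4 and at 34.3, 72.2, 71.7 and 41.3 CPM in Ex4 1 to 4. The low values were those of Ex4 1 and Ex4 4, and PBS 2 lay within the Ex4 range. The log2 fold change of Cxcl10 was -0.74 (SE 0.29, 95% interval -1.38 to -0.11, edgeR unadjusted p = 0.0252, adjusted p = 0.564), and it was -0.54 without PBS 1. Cxcl9 was at 31.6, 18.3, 28.0 and 23.0 CPM in PBS 1 to 4 and at 23.1, 25.2, 31.3 and 27.0 CPM in Ex4 1 to 4. The Ex4 values lay inside the PBS range, with a log2 fold change of 0.08 (SE 0.19, 95% interval -0.32 to 0.48, edgeR adjusted p = 0.958). Per kb of exon the ratio of Cxcl10 to Cxcl9 was 4.88 ± 1.01 (SD, n = 4) with PBS and 2.74 ± 0.888 with Ex4, and the highest Ex4 ratio, 3.84, exceeded the lowest PBS ratio, 3.66. Cxcl10 lies within Art3, which is on the opposite strand and shares 133 exon bases with it.

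Cxcl16 encodes a ligand of CXCR6 that is made as a transmembrane protein and shed from the cell surface. It lies at chr11:70454389-70459984 (RefSeq, GRCm38). Its level was 11.8, 14.6, 12.2 and 9.17 CPM in PBS 1 to 4 and 15.5, 9.44, 12.9 and 11.9 CPM in Ex4 1 to 4. The groups overlapped almost entirely, and the log2 fold change was 0.06 (SE 0.23, 95% interval -0.44 to 0.56, edgeR adjusted p = 0.977). Cxcl16 shares 552 exon bases with Zmynd15 on the opposite strand.

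Ccl20 and Ccl25 encode ligands of CCR6 and of CCR9, the receptors that draw lymphocytes to follicle-associated and small intestinal epithelium. Ccl25 lies at chr8:4325205-4360020 (RefSeq, GRCm38). It was at 8.18, 7.43, 14.8 and 11.6 CPM in PBS 1 to 4 and at 3.37, 9.59, 8.86 and 4.18 CPM in Ex4 1 to 4. PBS 3 and PBS 4 were high, Ex4 1 and Ex4 4 were low, and the groups overlapped. Between groups the log2 fold change of Ccl25 was -0.68 (SE 0.36, 95% interval -1.46 to 0.09, edgeR adjusted p = 0.686). The sum of the 17 epithelial markers was also highest in PBS 3 (1429 CPM) and PBS 4 (859 CPM). Its lowest value was that of Ex4 1 (322 CPM). Ex4 4, the other low library for Ccl25, had 654 CPM, above PBS 1 (644), PBS 2 (648) and Ex4 3 (616). With the epithelial marker score as a term in the edgeR fit the log2 fold change of Ccl25 was -0.31 (edgeR adjusted p = 0.891). The part of epithelial cells in this result was not tested. Ccl25 shares 204 exon bases with Elavl1 on the opposite strand.

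Ccl20 lies at chr1:83116766-83119167 (RefSeq, GRCm38) and had only 27 to 238 counts per library. Its level was 2.07, 2.78, 9.28 and 2.14 CPM in PBS 1 to 4 and 1.20, 4.48, 8.21 and 3.11 CPM in Ex4 1 to 4. PBS 3 and Ex4 3 stood above the other 6 libraries, 1 in each group. Between groups the log2 fold change was 0.07 (SE 0.60, 95% interval -1.22 to 1.36, edgeR adjusted p = 0.989). It was 0.82 without PBS 3 and -0.49 without Ex4 3, so its direction rested on single libraries. PBS 3 had the highest epithelial sum and Ex4 3 the highest B cell sum (2137 CPM). The mean log2 CPM of the B and plasma cell markers, which weighs each marker alike, was highest in these same libraries. It was 6.68 in Ex4 3 and 6.45 in PBS 3, against 4.44 to 5.82 in the others. The part of either cell type in Ccl20 was not tested. With the epithelial marker score as a term the value was 1.08 (edgeR unadjusted p = 0.0438, adjusted p = 0.608).

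**Figure D4:**
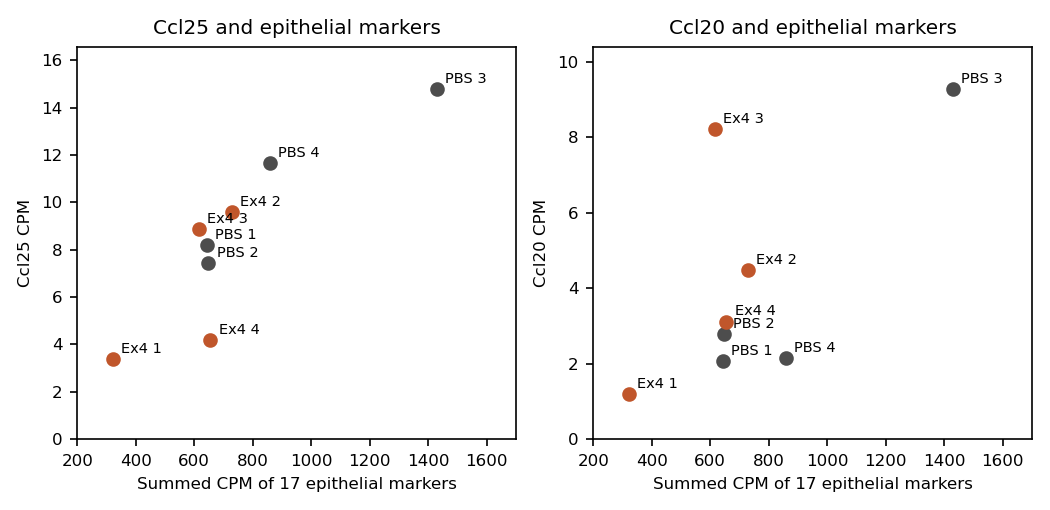
CPM of Ccl25 (left) and Ccl20 (right) against the summed CPM of 17 epithelial markers, 1 labelled point per library, grey for PBS and orange for Ex4. PBS 3 at 1429 CPM of markers is highest for both genes, and Ex4 1 at 322 CPM is lowest for both.

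The 10 genes did not all vary together across libraries. Likeness was measured as the root mean square difference of log2 CPM over the 8 libraries after each gene was centred on its own mean, so that 0 means the same pattern. A pair of genes that each varied little also has a small difference, whether or not they moved together. Of 45 pairs the smallest difference was that of Xcl1 and Cxcl10 (0.22), followed by Ccl5 with Cxcl16 (0.33) and Ccl3 with Ccl5 (0.36). Ccl5 and Cxcl16 each varied by only 0.25 (root mean square) about their own means, less than they differed from each other. Ccl3 and Ccl4 differed by 0.40, and varied by 0.42 and 0.70 about their own means. The largest difference was that of Ccl1 and Ccl4 (1.37), which took opposite extremes in PBS 1. That library had the highest values of all 8 for Ccl1, Xcl1, Cxcl9 and Cxcl10 and the lowest for Ccl3, Ccl4 and Ccl5. Ex4 3 was the highest Ex4 library for 7 of the 10 genes. Both libraries also stood apart in marker sums, as given above, and the part of other cells in these patterns was not tested.

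**Figure D5:**
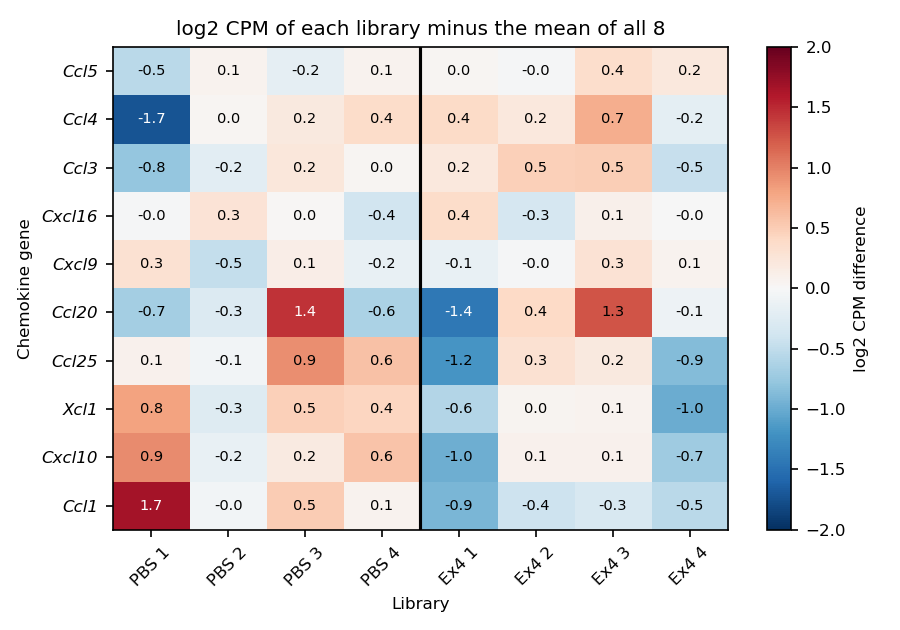
Difference of log2 CPM from the mean of all 8 libraries for each chemokine gene (rows) and library (columns), red above and blue below, with the value in each cell. PBS 1 joins the highest Ccl1, Xcl1, Cxcl9 and Cxcl10 with the lowest Ccl3, Ccl4 and Ccl5.

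The spread within groups differed between the genes. The pooled SD of log2 CPM within groups was 1.06 for Ccl20, 0.74 for Ccl4, 0.62 for Ccl25, 0.58 for Ccl1, 0.51 for Cxcl10, 0.48 for Xcl1 and 0.44 for Ccl3. It was 0.28 for Cxcl16 and Cxcl9 and 0.24 for Ccl5. Genes within 1 log2 unit of the same mean level served as a description of usual spread. Ccl4 exceeded 98.7% of 77 such genes, Cxcl10 97.1% of 3470, Xcl1 96.9% of 1984 and Ccl3 95.7% of 1749. For Ccl4 the SD was 0.97 with PBS and 0.38 with Ex4, and PBS 1 lay -1.44 from its group mean. Ccl20 exceeded 92.1% of 2903 such genes, Ccl25 79.3% of 3149 and Ccl1 61.9% of 2936. Ccl5 had only 2 genes of like level, too few to place it. Cxcl9 and Cxcl16 were ordinary, above 57.8% and 34.7% of genes of like level.

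Outside the 10, the genes nearest in pattern were looked up among 13793 named genes. Ccl1 ran closest to Ssbp3, a transcriptional cofactor gene (difference 0.15), and to Csf2, which encodes the cytokine GM-CSF (0.22). Csf2 was at 167, 49.3, 75.8 and 55.5 CPM in PBS 1 to 4 and at 33.5, 60.9, 48.8 and 34.9 CPM in Ex4 1 to 4, so PBS 1 was the highest library for both genes. Xcl1 ran closest to Tnfsf14, which encodes the TNF family ligand LIGHT (0.17), and to Klra5, a killer lectin-like receptor gene (0.18). Cxcl10 ran closest to Eif4ebp1, a translation repressor gene (0.18), and to Bcl2l1, which encodes BCL-XL (0.22). Ccl25 was nearest to Ifng (0.24) and to Krt20, an epithelial keratin gene (0.24). Ccl4 was nearest to Arid5b (0.19) and H3f3c (0.23), Ccl3 to Snord49a (0.15) and Gnpda2 (0.18), and Ccl5 to Ikzf1, the Ikaros gene (0.07), and Casp4 (0.08). H3f3c had only 3 to 28 counts per library and Snord49a 13 to 53, so their patterns are loosely measured. The nearest genes were Cmah (0.26) and Bank1, a B cell adaptor gene (0.31), for Ccl20, Sos1 and Reep3 (0.10 and 0.11) for Cxcl9, and Slc9a9 and Gbf1 (both 0.11) for Cxcl16. None of these genes passed the edgeR test.

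Genes for receptors of the 10 chemokines were read in the same bulk libraries. These held markers of several cell types, so receptor and chemokine RNA need not come from the same cells. Of 11 receptor genes, 10 were tested and 0 passed in either direction, with a median log2 fold change of 0.11. The groups did not overlap for 2 of them, both on the lower side, Ccr9 and Xcr1, against 2.66% of all genes on that side. Ccr9, the receptor of CCL25, was at 88.7, 49.1, 48.3 and 51.5 CPM in PBS 1 to 4 and at 34.7, 42.7, 35.4 and 35.7 CPM in Ex4 1 to 4 (log2 fold change -0.68, edgeR adjusted p = 0.400). Xcr1, the receptor of XCL1, was at 17.0 ± 2.20 CPM with PBS and 10.8 ± 2.42 CPM with Ex4 (SD, n = 4), with a log2 fold change of -0.65 (edgeR adjusted p = 0.473).

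Cxcr6, the receptor of CXCL16 and a marker of tissue-resident T cells, was the most abundant of these 11 receptor genes in CPM, at 1376 ± 330 with PBS and 1274 ± 202 with Ex4 (SD, n = 4). Ccr1, which binds CCL3 and CCL5, was at 17.0 ± 6.97 and 20.01 ± 8.37 CPM. Ccr6 was at 11.2 ± 6.16 and 12.6 ± 6.52 CPM, Cxcr3 at 3.23 ± 1.78 and 3.84 ± 1.40 CPM, and Ccr8 at 1.73 ± 1.19 and 2.95 ± 1.75 CPM. Ccr3 was at 0.596 ± 0.329 and 0.602 ± 0.385 CPM. The atypical receptors, which bind chemokines without classical signalling, were low: Ackr2 was at 1.21 ± 0.327 and 1.16 ± 0.202 CPM and Ackr1 at 0.286 ± 0.472 and 0.678 ± 0.261 CPM. Ackr4 had 0 to 25 counts per library and was not tested.

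Other genes of chemokine production and response gave 0 calls in any list. Among 15 tested genes of interferon-gamma, its receptor and its response the median log2 fold change was -0.06. Cxcl11 was in this list and also in that of the other chemokines. Ifng was at 100, 112, 196 and 173 CPM in PBS 1 to 4 and at 61.0, 101, 126 and 73.5 CPM in Ex4 1 to 4, with its lowest values in Ex4 1 and Ex4 4, where Cxcl10 and Xcl1 were lowest too. PBS 1, the highest library for Cxcl10, was the lowest PBS library for Ifng. Its log2 fold change was -0.69 (SE 0.26, edgeR adjusted p = 0.554). Jak2, a kinase of the interferon-gamma receptor, had -0.35, and Ifngr1, a chain of that receptor, 0.42. The groups did not overlap for 1 of the 15, Jak1, another kinase of that receptor, at 744 ± 65.0 CPM with PBS and 616 ± 61.1 CPM with Ex4 (SD, n = 4, log2 fold change -0.27, edgeR adjusted p = 0.670), against 2.66% of all genes on the lower side.

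Among 9 genes of chemokine handling the median was -0.15. The groups did not overlap for 1 of them, Srgn, against 2.29% of all genes on the higher side. Srgn encodes serglycin, the proteoglycan that holds granule proteins and chemokines, and was at 1242 ± 208 CPM with PBS and 1640 ± 165 CPM with Ex4 (SD, n = 4, log2 fold change 0.40, edgeR adjusted p = 0.540). Fitted log2 values were -0.84 for Sdc4, a heparan sulfate proteoglycan gene, and -0.30 for Cd44, a hyaluronan receptor gene. Among 15 genes of chemokine receptor signalling the median was 0.02, with Gng2 at 0.30, Rgs2 at -0.22 and Pik3r5 at -0.34. Gng2, a G protein gamma subunit gene, was the 1 gene of these 15 whose groups did not overlap, at 27.7 ± 5.82 and 34.0 ± 2.02 CPM (edgeR adjusted p = 0.723). Among 23 regulators of activation-induced chemokine genes the median was 0.06. The groups did not overlap for 2 of them, both on the higher side. Zfp36, which encodes tristetraprolin, a protein that binds AU-rich elements in cytokine mRNAs and speeds their decay, was at 84.0 ± 10.9 and 125 ± 14.1 CPM (0.57, edgeR adjusted p = 0.310). Nfkbiz, an atypical NF-kappaB inhibitor gene, was at 124 ± 17.6 and 157 ± 13.8 CPM (0.35, edgeR adjusted p = 0.556), and Junb had 0.43.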

How the data were processed

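What the authors deposited were raw, whole-number counts by gene symbol for 8 libraries, 1 per mouse. Per the submitters' processing notes STAR 2.7.9a, DESeq2 and the build mm10 (GRCm38) were involved, with no role stated. The read counter, its strand setting and its gene models are not named in the sources available. TruSeq mRNA libraries that keep strand were made, per the labels' protocols.

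The main test was edgeR 4.0.16 in R 4.3.3, with filterByExpr, TMM, a robust quasi-likelihood F test of Ex4 against PBS, p-values adjusted by Benjamini-Hochberg over 14691 genes, and 0.05 as threshold. Each SE and 95% interval follows from the fold change and the F value. Lengths came from GENCODE exon unions, and log2 CPM used a prior count of 2. Named were all 10 chemokines, 11 of their receptors (1 other receptor of the planned list is not reported here), the 3 genes with the smallest p of each other list, and the 2 genes nearest in pattern to each chemokine (no predicted genes, receptor segments or Rik clones). Jak1, Cd8a and the genes in the last paragraph on other chemokines beyond Ccl7, Cxcl2 and Ccl2 were chosen after their values were seen. Alternatives used DESeq2 1.42.0, limma 3.58.1 (voom), other scaling, filters, covariates and omitted libraries. The tests were tried on simulated data. The chemokines and lists were chosen with earlier results of these data known. Labels number separate mice but give no litter or batch.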

Additional observations from a re-analysis of the deposited data

Results flagged for a closer look

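For the 10 chemokine genes and 7 marker scores, the distance of the most extreme library of a group from its neighbour was divided by the range of the group (Dixon's ratio). The 95% limit for 4 samples was passed in 2 of 34 groups, where about 1 in 20, or 1.7, would be passed by chance. Ccl4 in PBS 1 was low, at 9.15 log2 CPM against 10.91 for its nearest PBS neighbour (ratio 0.837). The mean log2 CPM of the T cell and IEL markers was low in Ex4 2, at 6.96 against 7.48 for its neighbour (ratio 0.8292). This mean weighs each marker alike, and Cd5 had only 10 counts in Ex4 2 against 93 to 175 in the other Ex4 libraries. The summed CPM of the same markers was not low in Ex4 2, at 5335 within an Ex4 range of 5113 to 5668. No explanation was tested for either value.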

How the results depend on the processing

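No chemokine gene was called in the main edgeR test or under any of 20 alternatives that gave it an adjusted p, and 188 of 199 recomputed fold changes kept their direction. The other 11 changed sign, all of genes with a main value within 0.08 of 0 on the log2 scale. For Ccl20 the values were -0.16 without PBS 1, -0.09 without PBS 2, -0.15 without PBS 4, -0.49 without Ex4 3 and -0.62 without both PBS 2 and Ex4 3, and leaving out 1 library gave -0.49 to 0.82. For Cxcl9 they were -0.066 without PBS 2, -0.034 without Ex4 3 and -0.15 without both, and leaving out 1 library gave -0.066 to 0.20. For Cxcl16 they were -0.070 without PBS 4, -0.083 without Ex4 1 and -0.057 with the epithelial score as a term, and leaving out 1 library gave -0.083 to 0.15. The causes were not tested. Over all genes edgeR called 2, DESeq2 83, limma-voom 1, edgeR without a filter 8, with the epithelial score 1 and with the macrophage and dendritic score 7. Leaving out 1 library gave 1 to 14 calls, the 14 without PBS 2. With a replicate block 1 gene was called over all genes and 0 of the 10 chemokines. No pairing by replicate number was seen. Same-numbered libraries deviated together with correlations from -0.24 to 0.14, and 1 of 4 PBS libraries was nearest to its own number. With 4 libraries per group these values cannot show that the libraries were unpaired. The smallest adjusted p of any chemokine gene was 0.137, for Xcl1 with DESeq2, which gave no adjusted p for Ccl20 and for Ccl1, whose unadjusted p was smaller (0.00175 against 0.0034). Among the 10, depth limits Ccl20, Ccl25 and Ccl1 most, with as few as 27, 59 and 45 counts in a library. With 10 abundant genes left out, Ccl5 was among them and had no value.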

Other observations

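Among 27 other chemokine genes 25 had a count and 18 were tested, with 0 called, a median log2 fold change of -0.06 and groups that overlapped for all 18 in the edgeR table (0 had an unadjusted p under 0.05). Several that are known from macrophages and dendritic cells were highest in PBS 1. Ccl2, whose product recruits monocytes, was at 20.3 CPM there against 1.66 to 5.68 in the other 7 libraries. Ccl24, whose product recruits eosinophils, was at 42.5 CPM in PBS 1 and 26.3 in Ex4 3, and at 7.08 to 20.6 in the others. Ccl8 was at 26.1 CPM in PBS 1 and 17.9 in Ex4 3. Other genes of the list were not highest in PBS 1. Ccl12 had 145 counts in PBS 1 (of 19477917) and 330 in Ex4 3 (of 31843413). Pf4 had 44 counts in PBS 1 and 52 in PBS 4 (of 18266449). The sum of the 15 macrophage and dendritic cell markers was 340 CPM in PBS 1, 272 in Ex4 2, 226 in Ex4 3 and 144 to 197 in the others, so Ex4 2 lay above Ex4 3 in this sum. The part of these cells was not tested. Ccl7 was at 3.33 ± 1.67 and 1.56 ± 1.06 CPM with PBS and Ex4 (SD, n = 4), and Cxcl2, whose product recruits neutrophils, at 4.62 ± 1.90 and 7.11 ± 1.60 CPM. Ccl17 and Ccl22, ligands of CCR4, ran from 11.98 to 26.3 and from 7.82 to 16.2 CPM, with the highest value of each in PBS 1. Cxcl11 RNA was at 8.24 CPM in PBS 3 and at 1.92 to 2.81 CPM in the other libraries.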
